A study of Mus musculus with 8 samples.

Results

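Genes of the BBSome, the transition zone and the ciliary membrane were examined at their promoters, 38 genes of 26180 mouse genes with a curated RefSeq transcript. The genes were chosen by their known roles: 12 code for the BBSome and the proteins that assemble and recruit it, 19 for the transition zone and 7 for other proteins of the ciliary membrane, the inversin compartment and the cilium base. For each gene, peaks were taken that overlapped its promoter, defined as 1 kb upstream to 100 bp downstream of an annotated transcription start site (TSS), by at least 1 bp. The chromatin came from wild-type mice at postnatal day 0.5, with no transgene or treatment, as a cell suspension of the total epidermis. MOF (KAT8), the acetyltransferase of histone H4 lysine 16, was mapped by ChIPseq, where an antibody pulls down fixed, sheared chromatin. Rfx2, H3K4me3 and H3K27ac were mapped by Cut&Run, where a nuclease tethered to the antibody releases the bound fragments. The series held 8 samples for 6 antibodies, of which 4 peak lists were analysed, with 1 library behind each list, so no value below has a replicate error and no test across libraries was possible. Shares carry exact (Clopper-Pearson) 95% intervals that cover counting error over genes only.

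A primary cilium grows from a basal body in most cells, keratinocytes included, and concentrates receptors for signals such as Hedgehog in its membrane. The transition zone is the gate at the base of the cilium. It is built of a membrane-bound module named after Meckel syndrome (MKS), a module named after nephronophthisis (NPHP), and Cep290. The BBSome is a coat-like complex that moves membrane proteins through this gate, and its loss causes Bardet-Biedl syndrome. RFX factors bind the X-box, an inverted repeat found upstream of many ciliary genes. Trimethylation of histone H3 lysine 4 (H3K4me3) is the mark of active promoters, and H3K27 acetylation is found at active promoters and at enhancers.

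The X-box was searched as a pair of inverted 6-base elements separated by 0 to 3 bases, on either strand, because it links a promoter's sequence to the factor mapped here. A match was found in the promoter window of 11 of the 38 genes (28.9%, interval 15.4 to 45.9%), against 3.35% of genes with an H3K4me3 peak and 785 of the 26180 genes in all. By group it was found in 2 of 12 BBSome genes, 7 of 19 transition zone genes and 2 of 7 others. The sites below are from the mm10 assembly (GRCm38.p6), written 5′ to 3′ on the strand named, with the X-box in capitals and 7 flanking bases on each side. The first 6 lie at promoters with an Rfx2 peak and the last 5 at promoters without one.
B9d2 (chr7:25680796-25680809, plus strand): acctgctGTTGCCCCAGCAACagtcggg
Ahi1 (chr10:20952568-20952581, plus strand): agtctgaGTTACCTAGGCAACagcggca
Cep41 (chr6:30693866-30693880, plus strand): ctcaatgGTTGCCAAGGGCAACgcgggac
Ttc8 (chr12:98920312-98920324, minus strand): agatgcaGTTGCCTAGCAACcatccgg
Tctn1 (chr5:122264411-122264424, plus strand): cccgtctGTTGCCCGGGCAACagtcaca
Tctn2 (chr5:124598687-124598700, minus strand): aggaccaGTAGCCATGGTAACctccaat
Bbs1 (chr19:4906613-4906626, plus strand): cccaggcGTCGCCTTGGCAACcagctca
Tctn3 (chr19:40612359-40612371, plus strand): ggttcccGTTACCTGGCAACcgctggg
Tmem67 (chr4:12088070-12088082, minus strand): gtgcgtgGTAACCTAGCAACcaggcgt
Tmem237 (chr1:59120110-59120123, plus strand): cggaggcGTCGCCATGGCAACgctgact
Arl3 (chr19:46573096-46573110, plus strand): ctcccccGTTACCAGGGGTAACtgctgcg
All 11 sites lay within 256 bp of a TSS, the farthest at Ttc8 and the nearest, 8 bp downstream, at Bbs1. An X-box was present in 6 of the 14 promoters with an Rfx2 peak (42.9%, interval 17.7 to 71.1%), against 26.2% of all genes with Rfx2. It was present in 5 of the 24 without an Rfx2 peak (20.8%, interval 7.13 to 42.1%), against 2.82% of genes with H3K4me3 and no Rfx2, and the 2 intervals overlapped.

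At Tctn2 and Cep41 the X-box lay inside the Rfx2 peak and within 250 bases upstream of the TSS, so these bases are shown on the strand of the gene, with the X-box in capitals. At Tctn2 the X-box lay 56 bp upstream of the TSS. At Cep41 the Rfx2 summit was 106 bp upstream of the TSS, 18 bp from the X-box.
Tctn2 (chr5:124598499-124598748, plus strand): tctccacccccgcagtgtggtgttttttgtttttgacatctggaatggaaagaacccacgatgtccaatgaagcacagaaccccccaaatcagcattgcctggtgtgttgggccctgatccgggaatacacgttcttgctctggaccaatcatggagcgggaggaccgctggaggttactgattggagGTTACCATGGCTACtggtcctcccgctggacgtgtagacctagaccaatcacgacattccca
Cep41 (chr6:30693750-30693999, minus strand): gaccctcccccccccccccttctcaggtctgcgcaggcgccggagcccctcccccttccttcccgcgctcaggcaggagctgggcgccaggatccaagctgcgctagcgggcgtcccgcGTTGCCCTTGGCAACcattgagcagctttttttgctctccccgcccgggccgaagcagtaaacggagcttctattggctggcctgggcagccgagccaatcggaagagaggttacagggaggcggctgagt
Both stretches also hold CCAAT. In the RefSeq promoter table (GRCm38.p6, 250 bases before to 50 after a start), which held 36 of the 38 genes, CCAAT was found on either strand in 21 of 36 promoters (58.3%), against 41.1% of all promoters in the table. The core GTTNCC, which is part of many X-boxes, was found in 28 of 36 (77.8%, all promoters 48.8%), CCGGAAG in 8 of 36 (22.2%, all promoters 9.93%) and GGGCGG in 23 of 36 (63.9%, all promoters 38.2%). The NRF1 motif was found in 0 of 36, which allows a share of up to 9.74% (all promoters 1.07%). Promoters of all genes with H3K4me3 held CCGGAAG at 19.7% and GGGCGG at 71.2%, close to the shares among these genes. They held CCAAT at 43.05%, and the interval for these genes (40.8 to 74.5%) took in this share and that of all promoters. They held GTTNCC at 51.7%, below the interval for these genes (60.85 to 89.9%).

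All 38 genes carried an H3K4me3 peak at the promoter (interval 90.8 to 100%), against 54.0% of all genes, and in all 38 the peak covered a TSS. H3K27ac was present at 36 of 38 (94.7%, interval 82.2 to 99.4%), against 44.1% of all genes and 79.8% of genes with H3K4me3. With the peak centre required inside the window it was at 25 of 38 (65.8%), near the 64.9% of genes with H3K4me3 under the same rule. MOF was present at 22 of 38 (57.9%, interval 40.8 to 73.7%), against 23.7% of all genes and 42.0% of genes with H3K4me3. The interval for MOF thus took in the share among genes with H3K4me3. In this mixed tissue a peak in all cells and a peak in some of them cannot be told apart. Rfx2 was present at 14 of 38 (36.8%, interval 21.8 to 54.0%), against 1.21% of all genes and 2.24% of genes with H3K4me3. MOF and Rfx2 were found together at 8 genes (21.1%, against 1.46% of genes with H3K4me3) and Rfx2 without MOF at 6 (15.8%, against 0.785%). MOF without Rfx2 was found at 14 (36.8%, interval 21.8 to 54.0%), near the 40.5% of genes with H3K4me3, and neither at 10 (26.3%, against 57.2%).

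The MOF share rested on peaks of moderate score. When each list was reduced to its upper 50%, by score for MOF and by −log10 q-value for the others, 11 of 38 genes (28.9%) had a MOF peak, against 29.9% of genes with an H3K4me3 peak that remained. Rfx2 was then at 7 of 38 genes (18.4%), against 1.36%. By fold enrichment in place of the q-value, Rfx2 was at 8 of 38 (21.1%, against 1.34%), with Tmem138 added.

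**Figure D1:**
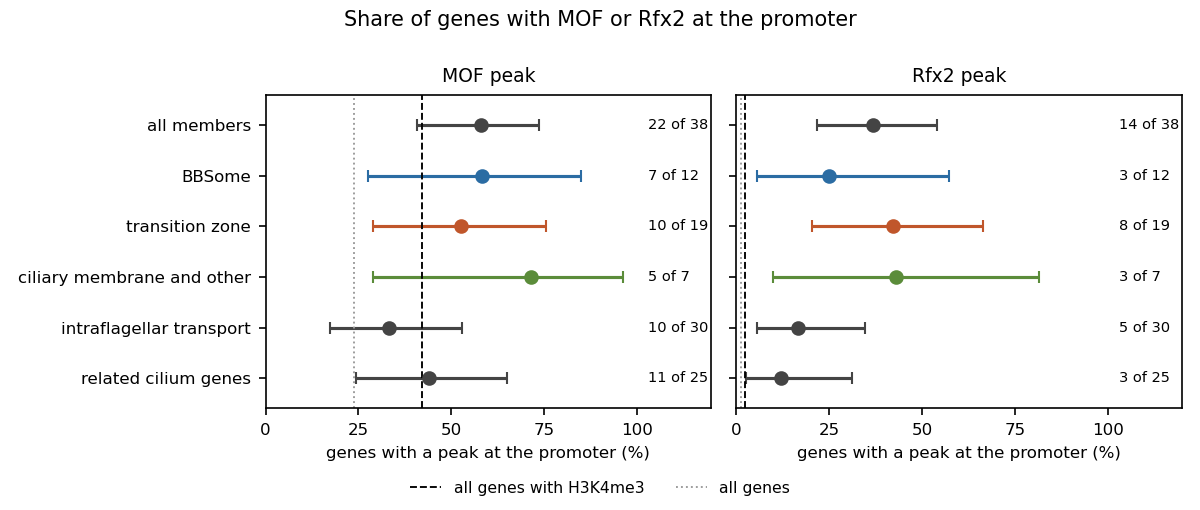
Points give the share of genes (%) with a MOF or an Rfx2 peak at the promoter in each list of genes, bars give exact 95% intervals, and vertical lines give the share over all genes (dotted) and over all genes with H3K4me3 (dashed). The Rfx2 share of all 38 members, 36.8%, stands above the 2.24% of genes with H3K4me3, whereas the interval of the MOF share spans the 42.0% of those genes.

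The BBSome and the transition zone were compared next. MOF was present at 7 of 12 BBSome genes (58.3%, interval 27.7 to 84.8%) and at 10 of 19 transition zone genes (52.6%, interval 28.9 to 75.6%). Rfx2 was present at 3 of 12 BBSome genes (25%, interval 5.49 to 57.2%) and at 8 of 19 transition zone genes (42.1%, interval 20.2 to 66.5%). For neither factor were the intervals of the 2 groups apart, and with 1 library for each factor the difference was not tested. MOF was present at 5 of the 7 other genes and Rfx2 at 3 of 7. Of genes with H3K4me3, 42.0% had MOF, which the MOF intervals of the BBSome and the transition zone took in, and 2.24% had Rfx2. With the peak centre required inside the window, MOF was at 7 of 12 BBSome genes and 7 of 19 transition zone genes. MOF scores, which rank peaks within the MOF list only, had a median of 548 over the BBSome genes with a peak, 595.5 over the transition zone and 651 over the others, against 656 over all genes with MOF.

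**Figure D2:**
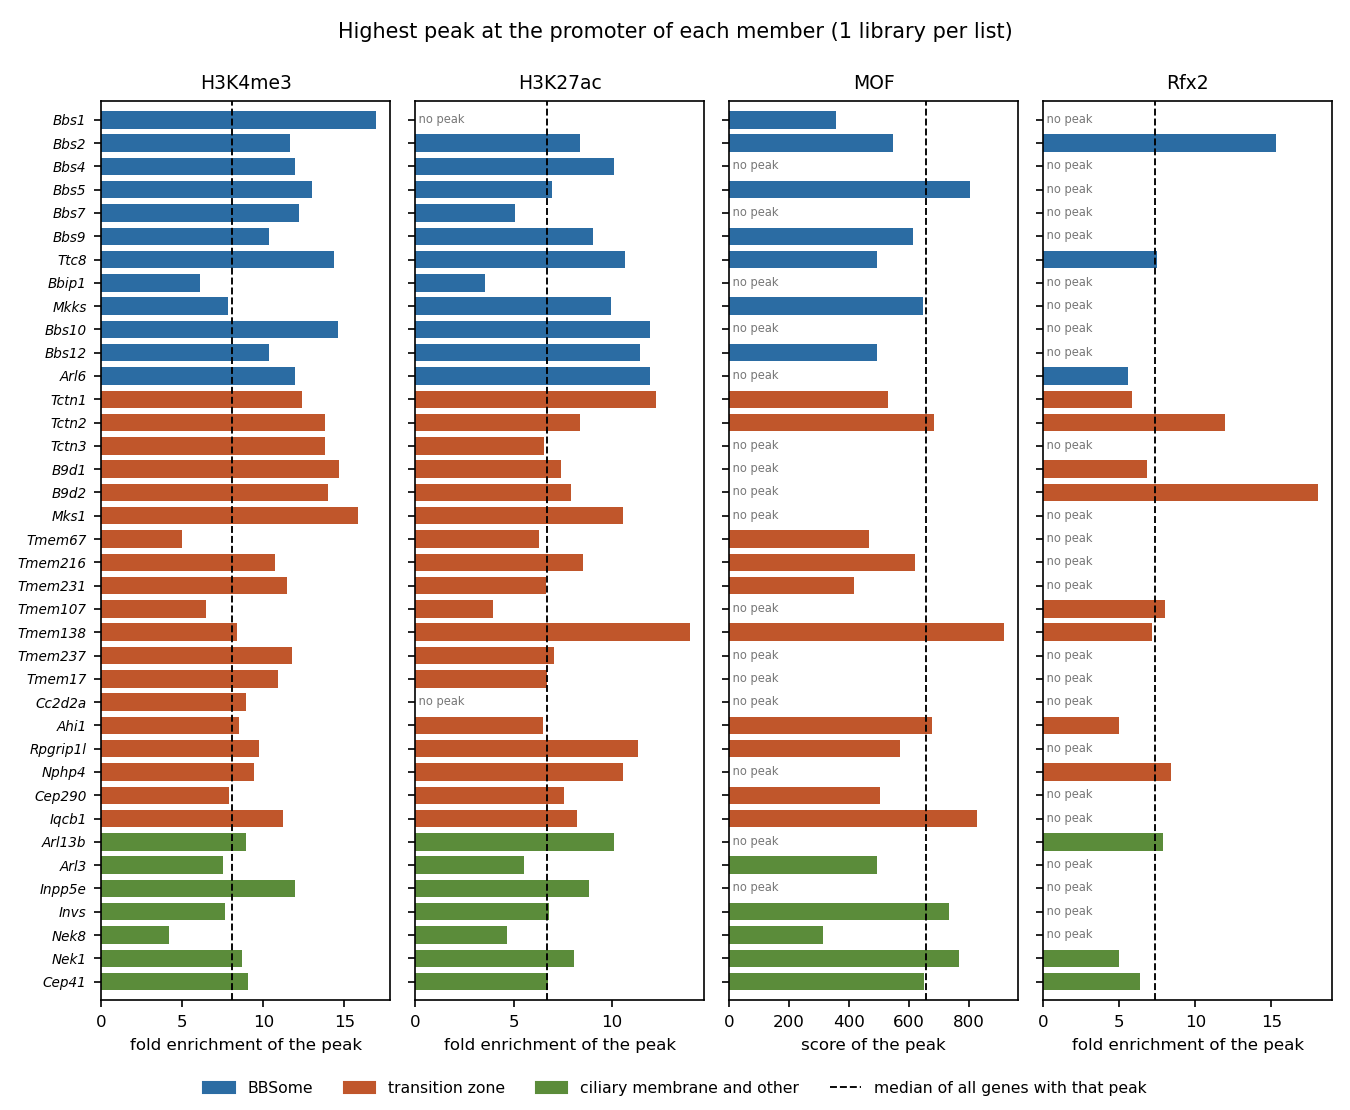
Bars give the fold enrichment (H3K4me3, H3K27ac and Rfx2) or the score (MOF) of the highest peak at the promoter of each of the 38 genes, coloured by group, and dashed lines give the median over all genes with that peak. H3K4me3 fold enrichment lies above the median of 8.04 at 30 of 38 genes, and the MOF score lies below the median of 656 at 15 of 22.

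The H3K4me3 peaks at these promoters were high. The fold enrichment over the background of the peak caller had a median of 10.8 (4.17 to 17.0), against 8.04 over all genes with H3K4me3, and the median gene stood at percentile 82.9. Their width had a median of 1198 bp (587 to 2246 bp, 95% interval of the median 1015 to 1329 bp), which took in the 1306 bp of all genes with H3K4me3. H3K27ac peaks had a median fold enrichment of 8.16 (3.55 to 14.0) against 6.72 over all genes with that peak, and 26 of 36 were above this. The H3K27ac peaks had a median of 750.5 bp in width (interval of the median 600.0 to 823 bp), against 898 bp. MOF scores had a median of 593 (312 to 919) against 656, so that 15 of 22 lay below the median of all genes with MOF. The 14 Rfx2 peaks had a median fold enrichment of 7.31 (5.0 to 18.1) against 7.33, and 7 lay on either side of it.

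H3K4me3 was also compared by the presence of MOF. The median fold enrichment was 11.9 (95% interval of the median 8.95 to 13.98) over the 16 genes without MOF and 10.03 (7.87 to 11.6) over the 22 with it, so that the intervals overlapped. Over all genes with H3K4me3 the medians were 8.01 without MOF and 8.06 with it. The median width was 1053.5 bp without MOF and 1325.5 bp with it, and over all genes with H3K4me3 these medians were 1184.5 bp and 1457 bp.

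**Figure D3:**
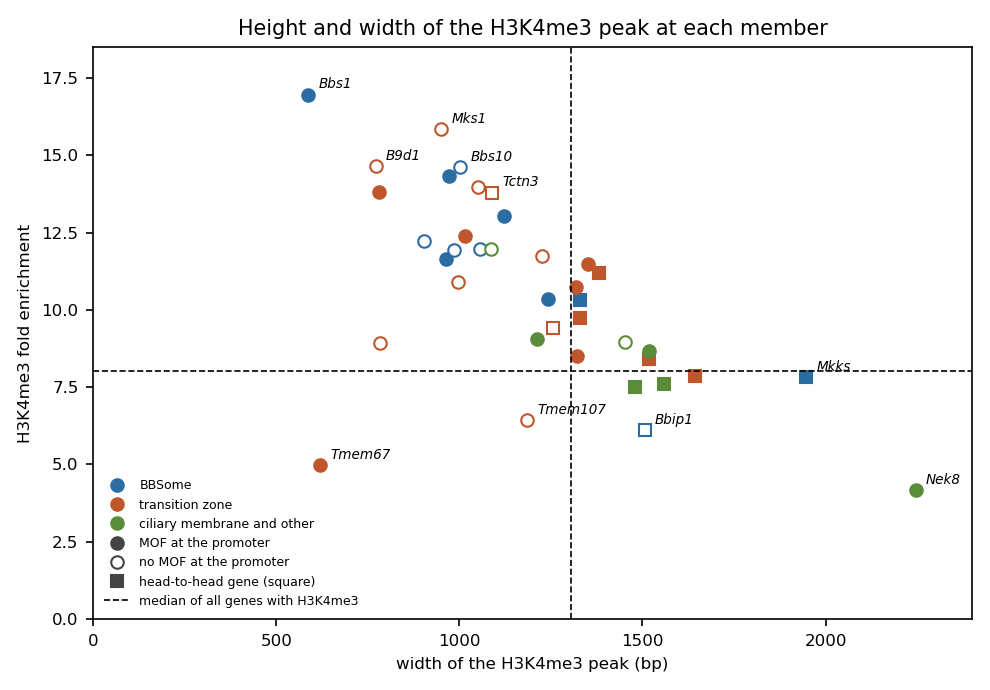
Each point is 1 of the 38 genes, by the width (bp) and the fold enrichment of its H3K4me3 peak, coloured by group, filled where MOF is at the promoter and square where a head-to-head gene starts within 1 kb. Dashed lines are the medians over all genes with H3K4me3 (1306 bp and 8.04); Bbs1 has the narrowest peak and the highest fold enrichment, and Nek8 the widest peak and the lowest.

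Among the 8 subunits of the BBSome, MOF was found at Bbs1, Bbs2, Bbs5, Bbs9 and Ttc8, and Rfx2 at Bbs2 and Ttc8. Bbs1, the subunit that binds Arl6, had the highest H3K4me3 fold enrichment of the 38 genes, 17.0, in the narrowest peak, 587 bp. It had no H3K27ac peak, the nearest lying 21436 bp away, and its MOF score of 357 was among the 3 lowest. Bbs2 had H3K4me3 at 11.6, H3K27ac at 8.38 and MOF at a score of 548. Its Rfx2 peak, at a fold enrichment of 15.3, was the highest of the BBSome. This call was lost with GENCODE M21 transcripts, and also where the centre of the peak had to lie in the window. Ttc8, also known as Bbs8, had H3K4me3 at 14.3, H3K27ac at 10.7, MOF at a score of 494 and Rfx2 at 7.49. With the RefSeq window these were the only BBSome genes with a peak in all 4 lists.

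Bbs5, a subunit that binds phosphoinositides, had the highest MOF score of the BBSome, 806, with H3K4me3 at 13.0 and H3K27ac at 6.97. Bbs9 had a MOF score of 615, H3K4me3 at 10.3 and H3K27ac at 9.05. Neither had an Rfx2 peak. Bbs4, Bbs7 and Bbip1 had neither MOF nor Rfx2. Bbs4 had H3K4me3 at 11.9 and H3K27ac at 10.1, and its nearest MOF peak was 61461 bp away. Bbs7 had H3K4me3 at 12.2 and H3K27ac at 5.09. Bbip1, the smallest subunit, had the lowest H3K4me3 of the BBSome, 6.12, and H3K27ac at 3.55 in a peak of 237 bp. Just past the promoter window, a higher H3K27ac peak of 8.14 lay 125 bp from its TSS and a MOF peak 121 bp from it. At the windows tried that reach further downstream Bbip1 counted as having MOF.

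The remaining BBSome genes code for its helpers. Mkks, Bbs10 and Bbs12 are chaperonin-like proteins that assemble the complex. Mkks had a MOF score of 648, H3K4me3 at 7.82 in a peak of 1948 bp and H3K27ac at 9.96. Bbs12 had a MOF score of 494, H3K4me3 at 10.3 and H3K27ac at 11.4. Bbs10 had neither MOF nor Rfx2, with H3K4me3 at 14.6 and H3K27ac at 11.9. Arl6, the small GTPase that recruits the BBSome to membranes, had Rfx2 at 5.55 and no MOF, with H3K4me3 at 11.98 and H3K27ac at 11.96. Its nearest MOF peak was 184820 bp from a TSS.

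In the MKS module of the transition zone, 7 of 15 genes had MOF and 7 of 15 had Rfx2 (46.7% each). Of genes with H3K4me3, 42.0% had MOF, near the share of the module, and 2.24% had Rfx2. The tectonics Tctn1, Tctn2 and Tctn3 are secreted or membrane proteins of the gate. Tctn1 had a peak in all 4 lists, with MOF at a score of 529, Rfx2 at 5.82, H3K4me3 at 12.4 and H3K27ac at 12.2. Tctn2 also had all 4, with a MOF score of 683, Rfx2 at 11.9, H3K4me3 at 13.8 and H3K27ac at 8.38. Tctn3 had H3K4me3 at 13.8 and H3K27ac at 6.53 but neither MOF nor Rfx2, although an X-box lay 134 bp upstream of its TSS. The tectonics thus differed in the factors found while their H3K4me3 values were alike.

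The B9-domain proteins B9d1, B9d2 and Mks1 form a complex of their own within the module, and none had MOF, except that B9d1 had it with GENCODE M21 in place of RefSeq transcripts. B9d2 had the highest Rfx2 fold enrichment of the 38 genes, 18.1, with H3K4me3 at 14.0 and H3K27ac at 7.92. B9d1 had Rfx2 at 6.85, H3K4me3 at 14.6 and H3K27ac at 7.41. Mks1 had no Rfx2 peak, and its H3K4me3 fold enrichment of 15.8 was the second highest of the 38. H3K27ac at Mks1 was 10.5. The nearest MOF peaks were 6168 bp from B9d2, 6272 bp from B9d1 and 36370 bp from Mks1.

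Of the transmembrane proteins of the module, Tmem138 had the highest MOF score (919) and the highest H3K27ac fold enrichment (14.0) of the 38 genes. It had Rfx2 at 7.13 and H3K4me3 at 8.40. Tmem216, whose product works with that of Tmem138, starts 20652 bp from the same Rfx2 peak and had a MOF score of 620, H3K4me3 at 10.7 and H3K27ac at 8.54, without Rfx2 at its own promoter. Tmem231 had a MOF score of 418, H3K4me3 at 11.5 and H3K27ac at 6.64. Tmem67 (meckelin) had a MOF score of 467 and the second lowest H3K4me3 fold enrichment, 4.98, in a peak of 619 bp, with H3K27ac at 6.31. Tmem107 had Rfx2 at 8.0 without MOF, H3K4me3 at 6.44 and H3K27ac at 3.94. Tmem237 and Tmem17 had neither factor, with H3K4me3 at 11.7 and 10.9 and H3K27ac at 7.04 and 6.69. An Rfx2 peak of fold enrichment 5.46 lay 166 bp from the TSS of Tmem17, outside the window, and was counted at each wider window tried.

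Cc2d2a, a coiled-coil protein of the module, had only H3K4me3, at 8.94, except that it gained H3K27ac with GENCODE M21 transcripts. From its RefSeq TSS the nearest H3K27ac peak was 9911 bp away and the nearest MOF peak 307521 bp away, the farthest of the 38. Ahi1 (jouberin) had a peak in all 4 lists, with a MOF score of 677, Rfx2 at 5.0, H3K4me3 at 8.50 and H3K27ac at 6.52.

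In the NPHP module with Cep290 and Iqcb1, MOF was at 3 of 4 genes and Rfx2 at 1. All 4 have a head-to-head partner, and MOF was at 59.6% of all such genes with H3K4me3. The MOF peaks at Rpgrip1l, Cep290 and Iqcb1 and the Rfx2 peak at Nphp4 were shared with the partner. Rpgrip1l, a scaffold that links the modules, had a MOF score of 571, H3K4me3 at 9.72 and H3K27ac at 11.3. Cep290, which bridges microtubules and membrane, had a MOF score of 504, H3K4me3 at 7.87 and H3K27ac at 7.54. Iqcb1 (Nphp5), a partner of Cep290, had a MOF score of 828, the second highest of the 38, with H3K4me3 at 11.2 and H3K27ac at 8.24. Nphp4 had the reverse pattern, with Rfx2 at 8.41 and no MOF, H3K4me3 at 9.41 and H3K27ac at 10.6.

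Outside both groups, Arl13b is the GTPase that defines the ciliary membrane and activates Arl3, a GTPase that releases lipid-modified cargo such as Inpp5e, a phosphoinositide phosphatase. Arl13b had Rfx2 at 7.87 and no MOF, with H3K4me3 at 8.95 and H3K27ac at 10.1. Arl3 had a MOF score of 494 and no Rfx2, with H3K4me3 at 7.5 and H3K27ac at 5.55. Inpp5e had neither, with H3K4me3 at 11.97 and H3K27ac at 8.85. Invs (inversin) and the kinase Nek8 build the compartment next to the transition zone. Invs had a MOF score of 736, H3K4me3 at 7.61 and H3K27ac at 6.82. Nek8 had the lowest MOF score of the 38, 312, and the lowest H3K4me3 fold enrichment, 4.17, in the widest peak, 2246 bp, with H3K27ac at 4.68. Both lacked Rfx2. The kinase Nek1 and Cep41, a centrosomal protein tied to tubulin glutamylation, had peaks in all 4 lists. Nek1 had a MOF score of 768, Rfx2 at 5.0, H3K4me3 at 8.67 and H3K27ac at 8.09. Cep41 had a MOF score of 651, Rfx2 at 6.37, H3K4me3 at 9.05 and H3K27ac at 6.75.

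The Rfx2 list was short, at 337 peaks, and the members were spread through it by fold enrichment. B9d2 (chr7:25680756-25681053) ranked 8, Bbs2 (chr8:94098123-94098444) ranked 17 and Tctn2 (chr5:124598650-124599031) ranked 38. Nphp4 (chr4:152477709-152477930) ranked 106, Tmem107 (chr11:69070835-69071022) 125, Arl13b (chr16:62846995-62847438) 130 and Ttc8 (chr12:98920300-98920565) 146. Tmem138 (chr19:10576890-10577424) ranked 166, B9d1 (chr11:61504862-61505080) 191 and Cep41 (chr6:30693725-30693911) 211. The first 3 were thus a BBSome gene and 2 transition zone genes, and the genes outside both groups followed from rank 130. Tctn1 (chr5:122264202-122264400) ranked 249, Arl6 (chr16:59639177-59639439) 267, and Ahi1 (chr10:20952561-20952748) and Nek1 (chr8:60993250-60993446) shared rank 300. The −log10 q-value fell over the same order, from 34.6 at B9d2 and 24.5 at Bbs2 to 2.59 at Ahi1 and Nek1.

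**Figure D4:**
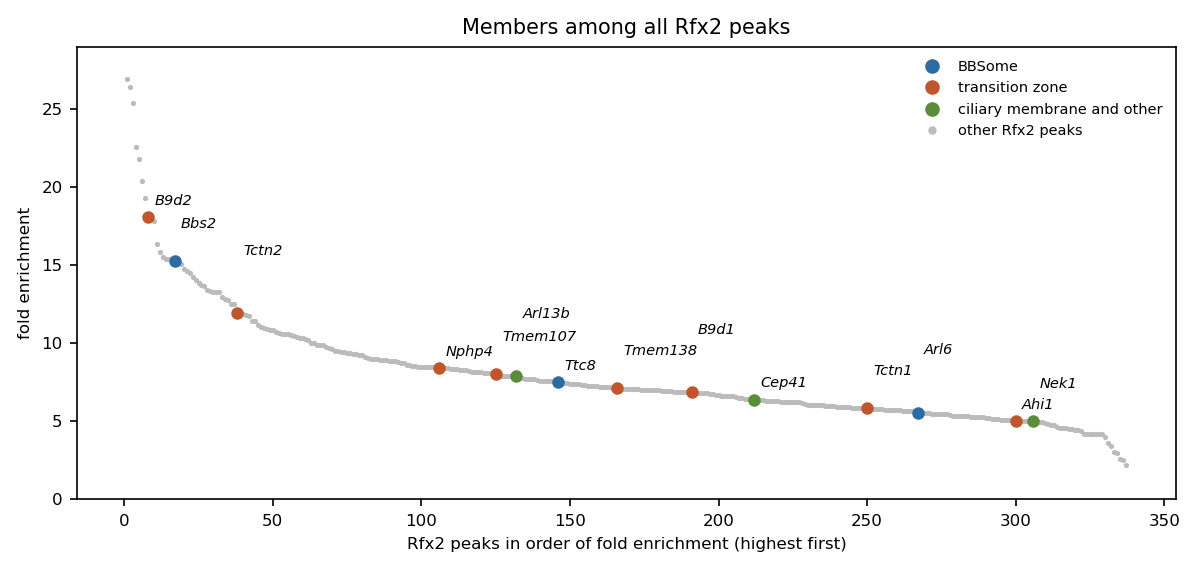
All 337 Rfx2 peaks are plotted in order of fold enrichment (vertical axis), with the peaks at 14 member promoters coloured by group and named. B9d2, Bbs2 and Tctn2 stand in the steep upper part of the curve at 18.1, 15.3 and 11.9, and the other 11 between 5.0 and 8.41.

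All 14 Rfx2 summits lay within 250 bp of a TSS, 6 of them within 100 bp, and the median distance was 104 bp. The promoter rule favours such short distances, and the same distances over all genes with Rfx2 are not given here. The summit was upstream of the nearest TSS at 5 genes, namely Ttc8 (129 bp), B9d1 (173 bp), Cep41 (106 bp), Arl13b (247 bp) and Arl6 (4 bp). At B9d2, Tctn2, Nphp4, Tmem107, Tmem138, Ahi1 and Nek1 the summit lay in a UTR or a non-coding exon. At Bbs2 (193 bp) and Tctn1 (168 bp) it lay downstream of the TSS in a coding exon. Measured from the TSS nearest the H3K4me3 summit, the centre of the Rfx2 peak was downstream at 10 of 14 genes and upstream at 28.6%, against 59.6% over all genes with Rfx2. The median position of the centre was 99.5 bp downstream, against 138.5 bp upstream over all genes with Rfx2. MOF peaks were centred upstream at 15 of 22 genes (68.2%), with a median position 49 bp upstream, against 48.3% over all genes with MOF and H3K4me3. H3K4me3 peaks were centred downstream at 27 of 38 genes, with a median position of 121 bp, and at 150.5 bp over all genes.

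**Figure D5:**
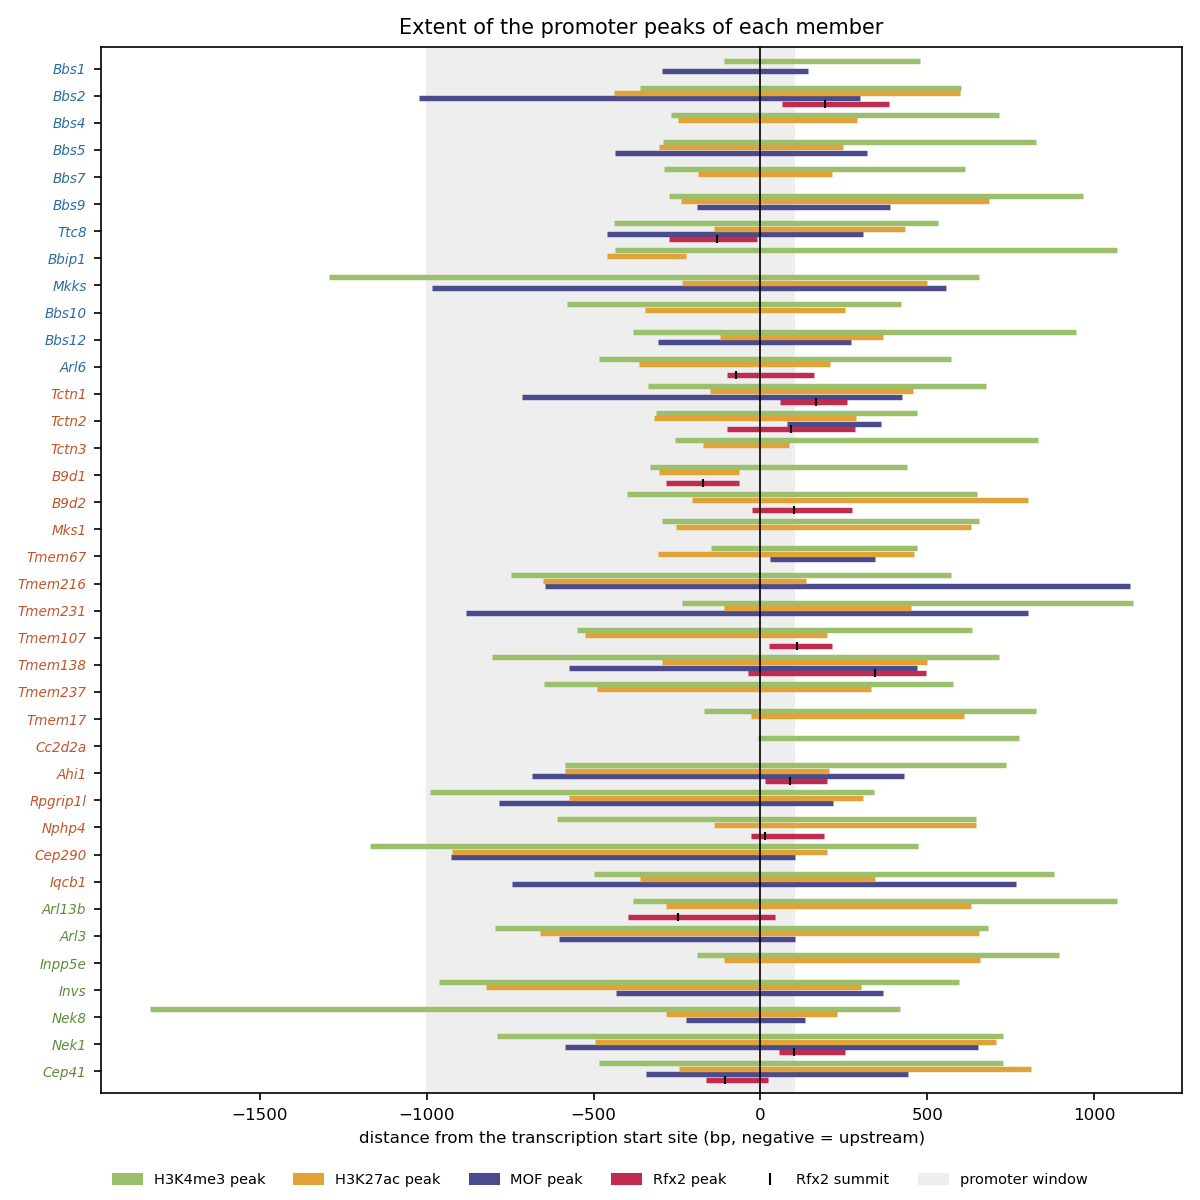
Horizontal bars give the extent of the H3K4me3, H3K27ac, MOF and Rfx2 peaks at each of the 38 genes, as distance (bp) from the TSS nearest the H3K4me3 summit, with the Rfx2 summit as a tick and the promoter window shaded. MOF bars lie over the TSS at 20 of 22 genes; at Tctn2 and Tmem67 they start downstream of it.

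Where both factors were found, their peaks met. At the 8 promoters with MOF and Rfx2 (Bbs2, Ttc8, Tctn1, Tctn2, Tmem138, Ahi1, Nek1 and Cep41) the Rfx2 peak itself overlapped the MOF peak. At the other 6 the gap from the Rfx2 peak to the nearest MOF peak was 6144 bp at B9d2, 6336 bp at B9d1, 10801 bp at Tmem107, 12082 bp at Nphp4, 59606 bp at Arl13b and 184658 bp at Arl6. There was therefore no gap between 0 and 6144 bp. At the 8 promoters both peaks had to touch the promoter of the same gene, and the MOF peaks had a median width of 1080 bp. The selection itself thus favoured overlap. The share of overlapping peaks over all genes with both factors is not given here. MOF was found at 8 of the 14 genes with Rfx2 (57.1%, interval 28.9 to 82.3%), against 65.0% over all genes with Rfx2. It was found at 14 of the 24 genes without Rfx2 (58.3%, interval 36.6 to 77.9%), against 41.5% over all genes with H3K4me3 and no Rfx2. Within these 38 genes both shares lay well within each other's interval. With the upper 50% of both lists, MOF and Rfx2 were found together at 1 gene, Tctn2, by q-value, and at 2, Tctn2 and Tmem138, by fold enrichment. With the peak centre required inside the window, MOF was at 3 of the 9 genes with Rfx2 (33.3%), against 49.4% over all genes with Rfx2.

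An X-box lay within 100 bp of the Rfx2 summit at 3 of 14 genes, against 13.9% of all Rfx2 peaks. These were Cep41 (18 bp), Ahi1 (61 bp) and B9d2 (80 bp). Within 250 bp it was found at 6 of 14, against 28.5% of all Rfx2 peaks, with Tctn1 (125 bp, outside its peak), Ttc8 (127 bp) and Tctn2 (149 bp) added. Of the high Rfx2 peaks, B9d2 thus had an X-box near the summit and Bbs2, ranked 17, had none within 250 bp. Of the pair with the lowest fold enrichment, Ahi1 had one and Nek1 had none. The core GTTNCC lay within 250 bp of the summit at 14 of 14 genes, against 83.1% of all Rfx2 peaks and 64.6% of H3K4me3 peaks without Rfx2. Within 100 bp it lay at 8 of 14 (57.1%), against 54.6% and 34.4%.

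Shared promoters were counted because a peak there belongs to more than 1 gene. An opposite TSS lay within 1 kb upstream at 11 of the 38 genes (28.9%, interval 15.4 to 45.9%), against 20.0% of genes with H3K4me3. The pairs were Arl3 with Sfxn2 (183 bp), Bbip1 with Shoc2 (249 bp), Bbs12 with Cetn4 (108 bp), Cep290 with Tmtc3 (235 bp), Invs with Erp44 (125 bp) and Iqcb1 with Eaf2 (141 bp). The others were Mkks with Slx4ip (188 bp), Nphp4 with Kcnab2 (189 bp), Rpgrip1l with Fto (303 bp), Tctn3 with Entpd1 (135 bp) and Tmem138 with Cyb561a3 (62 bp). The H3K4me3 peak and the H3K27ac peak were shared between the partners in all 11 pairs, the MOF peak in 8 and the Rfx2 peak in 2 (Nphp4 and Tmem138). At the remaining 12 of the 14 genes with Rfx2 the peak lay at the promoter of 1 gene.

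MOF was at 8 of the 11 head-to-head members (72.7%, interval 39.0 to 94.0%) and at 14 of the other 27 (51.9%, interval 32.0 to 71.3%). Over all genes with H3K4me3 the shares were 59.6% and 37.6%. Rfx2 was at 2 of 11 (18.2%, interval 2.28 to 51.8%) and at 12 of 27 (44.4%, interval 25.5 to 64.7%), whereas over all genes with H3K4me3 it was 4.0% and 1.80%. The order of the Rfx2 shares was thus the other way round among the members, with intervals that overlapped. The median H3K4me3 width was 1479 bp at the head-to-head members and 1051 bp at the other 27. Over all head-to-head genes it was 1605 bp, against 1306 bp over all genes with H3K4me3. The median fold enrichment was 8.40 (95% interval of the median 7.5 to 11.2) and 11.7 (9.05 to 13.02), with intervals that overlapped, and over all head-to-head genes it was 7.52, against 8.04. A peak at these promoters cannot be assigned to 1 gene of the pair.

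Other genes of the cilium were counted for comparison. All 30 genes of intraflagellar transport, the motor-driven traffic along the axoneme, had H3K4me3 and 29 had H3K27ac. MOF was at 10 of 30 (33.3%, interval 17.3 to 52.8%) and Rfx2 at 5 of 30 (16.7%, interval 5.64 to 34.7%), where the shares of genes with H3K4me3 were 42.0% and 2.24%. The Rfx2 peaks were 16.4 at Ift57, 8.50 at Wdr34, 8.36 at Ift122, 7.77 at Ift81 and 4.17 at Wdr35. Of 25 related cilium genes, all had H3K4me3, 24 had H3K27ac, 11 had MOF (44.0%, interval 24.4 to 65.1%) and 3 had Rfx2 (12%, interval 2.55 to 31.2%). The MOF intervals of both lists took in the 42.0% of genes with H3K4me3. The 3 were Lztfl1, a regulator of BBSome traffic, at 11.4, Arl2bp, a binding partner of Arl2 and Arl3, at 6.55, and Pde6d, a carrier of lipid-modified proteins, at 5.27, and all 3 also had MOF. Median H3K4me3 fold enrichment was 10.8 over the intraflagellar transport genes and 9.40 over the related genes. An X-box was in the promoter window of 4 of 30 and 2 of 25. The intervals for MOF and Rfx2 overlapped those of the 38 members in both lists.

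The tissue label was checked on marker genes. H3K4me3 lay at 6 of 8 keratinocyte markers (Krt5, Krt14, Trp63, Dsp, Perp and Sfn) but not at Krt1 and Krt10, which mark differentiated layers. That share (75%, interval 34.9 to 96.8%) took in the 54.0% of all genes. Fold enrichment at the 6 ran from 3.29 to 4.70, below the median of 8.04 over all genes with H3K4me3. H3K27ac lay at 4 of the 8 (interval 15.7 to 84.3%, against 44.1% of all genes), and was absent from Krt1, Krt10, Krt5 and Trp63. H3K4me3 lay at 2 of 5 melanocyte markers (Pmel and Mlana), 2 of 5 fibroblast markers (Pdgfra and Dcn), 1 of 4 endothelial markers (Kdr) and 0 of 4 immune markers. H3K27ac lay at 1 of 5, 1 of 5, 0 of 4 and 0 of 4 of these markers in the same order. H3K4me3 fold enrichment was 7.24 at Pmel, 4.965 at Mlana, 6.75 at Pdgfra, 3.83 at Dcn and 9.27 at Kdr. The H3K4me3 intervals of these marker sets overlapped that of the keratinocyte markers, so the check did not separate the cell types. Of 6 markers of multiciliated cells, which build many motile cilia, 4 had H3K4me3 and 0 had H3K27ac. Foxj1, the master regulator of those cells, had H3K4me3 at 13.8 and Rfx2 at 8.45. The part of other cell types in the member values was not tested.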

How the data were processed

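Peak lists of MOF ChIPseq and of Rfx2, H3K4me3 and H3K27ac Cut&Run from P0.5 total epidermis were used as deposited. The authors aligned reads to mm10 with Bowtie2 and called peaks for each library with MACS2. The control library and excluded regions are not given in the sources used here. The Rfx2, H3K4me3 and H3K27ac lists hold, as the authors' peak caller gave them, summits, scores, a fold enrichment ratio, −log10 p-values and −log10 q-values. The deposited MOF list holds regions with a score whose scale is not stated, and holds more regions than the study counted as MOF peaks. The score therefore served only to rank, and each MOF share depends on this list. The H3K4me3 list is labelled as the repeat library, but its name lacks the mark of a repeat. The lists hold no read counts. The study states the reads of each library, with the fewest for Rfx2 among the libraries used, and these were not used here. Peak heights were not compared between lists.

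Promoters, coordinates and annotations are those of RefSeq on GRCm38.p6 (mm10), and 0 peaks passed a chromosome end. The value of a gene in a list is that of its highest peak overlapping the promoter. Overlaps and motif searches were tested on simulated data and against bedtools (2.31.1), and were run with Python 3.11.15, pandas 2.3.3, numpy 2.4.6, scipy 1.17.1 and pysam 0.24.0. The 38 genes and the lists were chosen with earlier results of these data known. All 38 are reported. Values are given in full for genes with an Rfx2 peak, genes lacking a histone mark, the 3 highest and 3 lowest MOF scores and H3K4me3 fold enrichments, and genes sharing a promoter. Of the other cilium genes, those with Rfx2 are named. Other settings of the promoter window, the TSS set, the overlap rule and the peak lists are given in the closing section.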

Additional observations from a re-analysis of the deposited data

How the results depend on the processing

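Results were recomputed under other promoter windows, TSS sets, overlap rules and reduced lists. Of the recomputed values, 80 stayed within 1.5 times the reported value and 18 did not. With the highest 50% of each list, by score for MOF and −log10 q-value for the others, MOF was found at 11 of the 38 genes, 3 BBSome and 5 transition zone genes, Rfx2 at 7 genes, 4 of them in the transition zone, and MOF at 1 of the 7 genes with Rfx2. By fold enrichment in place of the q-value, Rfx2 was at 8 genes, 5 of them in the transition zone and 2 with MOF, and the MOF counts were again 11, 3 and 5. With the peak centre required inside the window, H3K4me3 was counted at 19 genes, MOF at 19 and Rfx2 at 9, of which 5 in the transition zone and 3 with MOF, and Bbs2, Tctn1, Tmem107, Ahi1 and Nek1 lost Rfx2. Under that rule H3K27ac was at 25 of 38 genes (65.8%), near the 64.9% of genes with H3K4me3. MOF was then at 7 of 12 BBSome genes (58.3%) and 7 of 19 transition zone genes (36.8%), against 34.2% of genes with H3K4me3. The X-box count of 3 near Rfx2 summits became 6 within 250 bp and 8 for the core GTTNCC. Under the other settings the MOF count lay between 22 and 24 and the Rfx2 count between 13 and 15. Bbip1 gained MOF and Tmem17 gained Rfx2 at every symmetric window. The upper 50% by fold enrichment, the inner part of MOF regions, GENCODE M21 transcripts and starts on either side within 1 kb were alternatives chosen after seeing the data. With GENCODE M21 transcripts Bbs2 lost its Rfx2 call, B9d1 and Bbip1 gained MOF, Cc2d2a gained and Tmem17 lost H3K27ac, and the cause was not tested.

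No paired analysis was possible because the 4 lists come from 4 antibodies and no antibody had a second list, and for the same reason no library was left out. The Rfx2 library had the fewest reads of those used, and a promoter without a peak is a promoter without a call, not one shown to lack the factor.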
